A study of Mus musculus with 6 samples.

Results

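The ionotropic and metabotropic glutamate receptors and the nicotinic acetylcholine receptors of the ganglion cell layer were examined at the RNA level 6 hrs after optic nerve crush. Members were taken by gene symbol from the array annotation (Gria, Grik, Grin, Grid, Grm and the nicotinic Chrn genes), which gave 37 genes of the 18193 genes with a symbol of their own on the array. They comprise 4 AMPA receptor subunits, 5 kainate receptor subunits, 6 NMDA receptor subunits, 1 delta receptor, 6 metabotropic glutamate receptors and 15 nicotinic subunits, carried by 70 probe sets. RefSeq lists 42 protein-coding genes of these families, and the other 5 were not analysed here. Each gene is given by its brightest probe set over the 6 arrays, and a gene was taken as detected when the mean of that probe set was at least 40, which held for 34 of the 37.

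The arrays came from male C57BL/6J mice. The 3 crushed eyes had the optic nerve crushed with forceps 6 hrs before the eyes were taken, and the 3 control eyes were contralateral eyes of the same animals without injury. About 6000 cells of the ganglion cell layer were collected from each eye by laser capture, which yielded about 60 ng of total RNA, and 1 array was run per eye. The uninjured eye of an operated animal served as control, so an effect of surgery on both eyes is not visible in the difference. With RNA of a captured layer, fewer cells of a type and less RNA per cell cannot be told apart.

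Retinal ganglion cells (RGCs) receive glutamate from bipolar cells through AMPA and NMDA receptors and acetylcholine from starburst amacrine cells through nicotinic receptors. Displaced amacrine cells share the ganglion cell layer with the RGCs and carry many of the same receptors. AMPA, kainate and NMDA receptors are cation channels assembled from several subunits, metabotropic receptors act through G proteins, and nicotinic receptors are channels whose subunit makeup sets their affinity and calcium permeability. Calcium entry through NMDA receptors and through AMPA receptors that lack the Gria2 subunit is a known route of excitotoxic injury to RGCs.

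None of the receptor genes passed the threshold between crushed and control eyes once multiple testing was taken into account. Over all 33169 probe sets tested by limma on log2 intensities, with the number of the eye as a block, 0% passed an adjusted p under 0.05, while 2546 had an unadjusted p under 0.05, here called nominally different. The paired t-test of the study's methods also gave 0 after Benjamini-Hochberg adjustment and 1671 before it. Of the 34 detected receptor genes 3 were nominally higher in crushed eyes (Grin3b, Grm8 and Chrna1), against 2.76% of all 15103 detected genes, and 0 were nominally lower, against 2.27%. In Grin3a, Grin3b and Grm8 all 3 crushed eyes lay above all 3 control eyes, against 5.69% of all genes, and in Chrnd all crushed eyes lay below all control eyes, against 5.32%. On average 17 of the receptor genes were higher and 17 lower in crushed eyes, with a median log2 fold change of -0.01, against -0.02 over all genes.

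The arrays of crushed eyes 2 and 3 stood apart from the other arrays, crushed eye 2 on the first principal component of all probe sets and crushed eye 3 on the next. Median intensity was 131.2 to 153.9 in crushed eyes and 141 to 142.6 in control eyes. Crushed eye 2 was the lowest of the 6 arrays for 16 of the 34 receptor genes, against 36.5% of all genes. In pair 2 the median log2 difference of the receptor genes was -0.27 with 25 of 34 lower, whereas it was 0.07 in pair 1 and 0.06 in pair 3, and over all genes it was 0.01, -0.10 and 0.04 in pairs 1, 2 and 3. Values without pair 2 are given beside receptor genes whose log2 fold change rests on it.

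**Figure D1:**
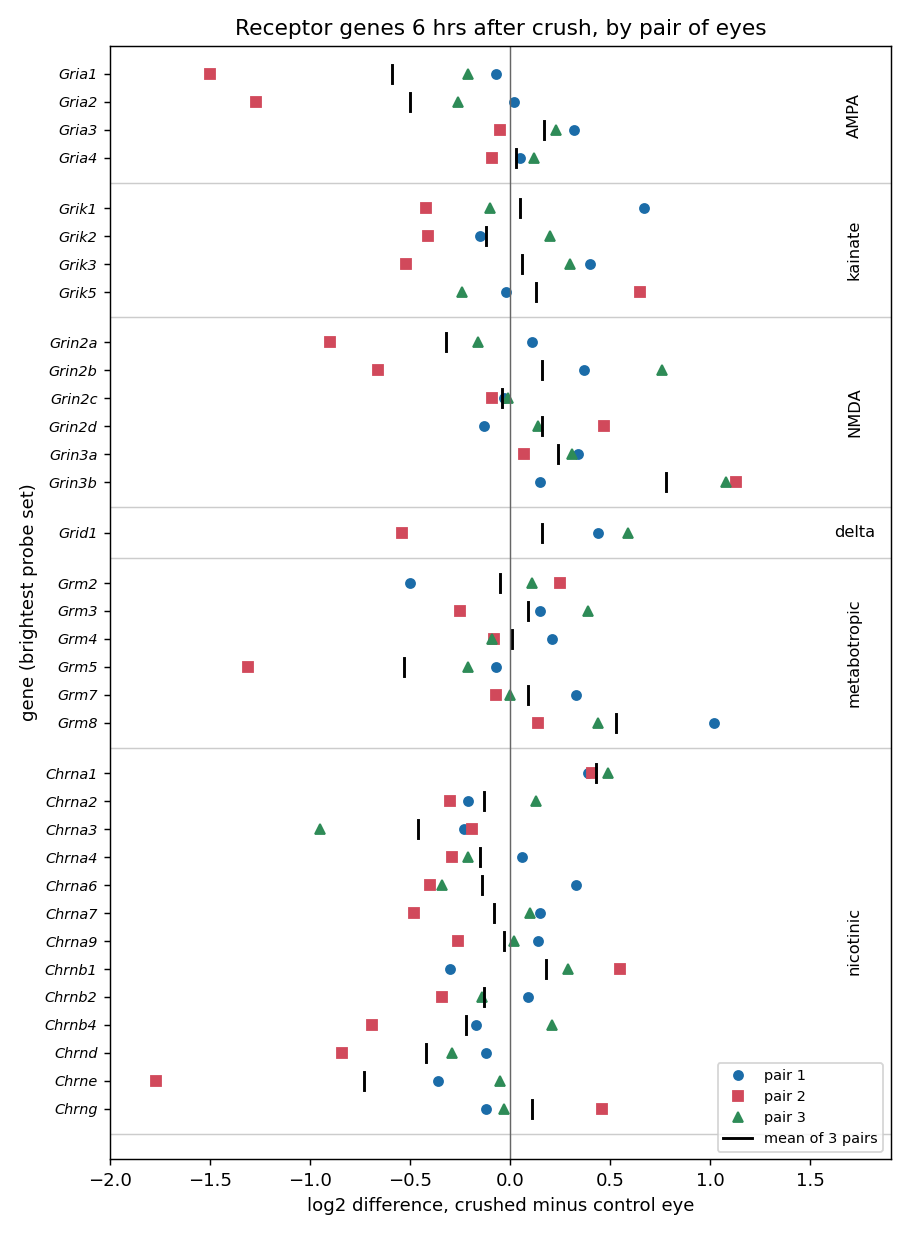
Log2 difference of crushed minus control eye (x axis) for the 34 detected receptor genes (y axis, brightest probe set, grouped by class), with a symbol for each of the 3 pairs and a black bar for their mean. Pair 2 (squares) lies far to the left for Gria1 at -1.50, Gria2 at -1.27, Grm5 at -1.31 and Chrne at -1.77, while the 3 pairs of Chrna1 lie together between 0.39 and 0.49.

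The AMPA receptor subunits, which carry the fast glutamate current, showed lower RNA in crushed eye 2 at the brightest probe sets of Gria1 and Gria2, and little difference in Gria3 and Gria4. Gria1, a subunit whose protein was followed in the study, had intensities of 621, 268 and 463 in crushed eyes 1, 2 and 3, against 653, 755 and 535 in control eyes 1, 2 and 3. Each crushed eye was below its own control, but the groups overlapped, and crushed eye 2 lay far below all the other eyes. On average the log2 fold change was -0.59 (SE 0.31, unadjusted p = 0.111, adjusted p = 0.65 from limma), and without pair 2 it was -0.14. The other probe set of Gria1, at 270, 219 and 178 in crushed eyes and 227, 254 and 172 in control eyes, did not show this difference, with a log2 fold change of 0.03.

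Gria2, the subunit that keeps AMPA receptors nearly impermeable to calcium, had intensities of 4439, 1944 and 3875 in crushed eyes against 4390.0, 4698 and 4625 in control eyes at its brightest probe set. Only crushed eye 2 was far below the controls, and the log2 fold change of -0.50 (unadjusted p = 0.125, adjusted p = 0.659 from limma) was -0.12 without pair 2. A pair of further probe sets of Gria2 had log2 fold changes of 0.18 and 0.10, with crushed eye 2 at 3241 and control eye 2 at 2994 for the brighter of them. The probe sets of Gria2 thus differed among themselves on the same array.

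Gria3 had a log2 fold change of 0.17 at its brightest probe set. Its other probe set stood at 1588, 1757 and 2368 in crushed eyes against 1285, 1330.2 and 1409 in control eyes, a log2 fold change of 0.49 (SE 0.16, unadjusted p = 0.025, adjusted p = 0.642 from limma). There all crushed eyes were above all control eyes, while at the brightest probe set the groups overlapped. Gria4 was the steadiest of the 4, at 3608, 3504 and 3737 in crushed eyes and 3492, 3719 and 3435 in control eyes, with a log2 fold change of 0.03 (95% confidence interval -0.32 to 0.38). The further probe sets of Gria4 gave 0.14 and -0.35. Of the 16 receptor genes with more than 1 detected probe set, all probe sets had the same sign in 7 and differed in sign in 9.

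**Figure D2:**
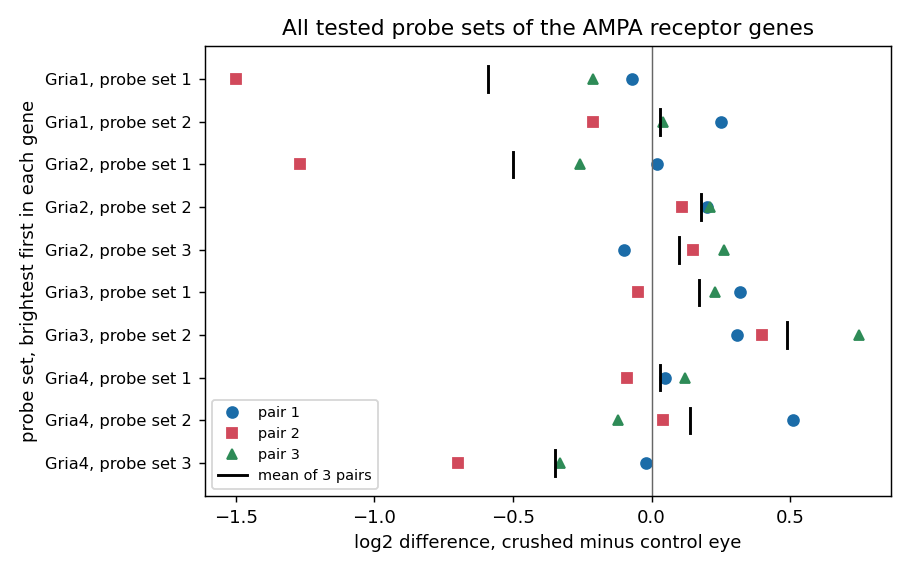
Log2 difference of crushed minus control eye (x axis) at each of the 10 detected probe sets of the AMPA receptor genes (y axis, brightest first within a gene), with a symbol per pair and a black bar for the mean. The large pair 2 differences of Gria1 (-1.50) and Gria2 (-1.27) appear at the brightest probe set of each gene and not at the others, where pair 2 lies at -0.21 for Gria1 and at 0.11 and 0.15 for Gria2.

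RNA of the proteins that traffic and anchor AMPA receptors differed little between the groups. Of 14 genes of auxiliary and trafficking proteins 5 were higher and 9 lower on average in crushed eyes, with a median log2 fold change of -0.02 and 0 nominally different. Cacng2 (stargazin), which brings AMPA receptors to the synapse, was at 1987, 2125 and 2618 in crushed eyes against 1610, 1600 and 2126 in control eyes, higher in 3 of 3 pairs by 0.30 to 0.41 with a log2 fold change of 0.34 (unadjusted p = 0.0511, adjusted p = 0.642 from limma). Cacng2 also stands among the genes that the study chose on these same arrays, so its direction is not independent evidence. Cacng4 went the other way and had the lowest value of the list. It was lower in 3 of 3 pairs, at -0.23, -0.91 and -0.14. Its log2 fold change was -0.43 (unadjusted p = 0.082, adjusted p = 0.642 from limma). Of 12 detected postsynaptic scaffold genes 5 were higher and 7 lower, with a median of -0.05. Dlg4, which encodes PSD-95, shared with Gria1 the low value of crushed eye 2, at 584, 175 and 682 in crushed eyes against 545, 529 and 574 in control eyes, but was higher in pairs 1 and 3.

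Among the NMDA receptor subunits, the Grin3 subunits, which bind glycine and lower the calcium permeability of the channel, were higher in all 3 crushed eyes at their brightest probe sets. Grin3b stood at 56.5, 101 and 112 in crushed eyes, against 51.0, 46.5 and 52.8 in control eyes. Crushed eyes 2 and 3 were above their controls by 1.13 and 1.08 on the log2 scale, and crushed eye 1 was just above all controls. The log2 fold change was 0.78 (SE 0.24, 95% confidence interval 0.18 to 1.39, unadjusted p = 0.0197, adjusted p = 0.642 from limma), the largest of the 34 genes. These intensities are close to the detection limit of 40, and with intensities under 64 set to 64 the log2 fold change was 0.49 and no longer nominally different. The same held without pair 2 at 0.61 and without pair 3 at 0.64. Grin3a, well above that limit, had 1216, 1113 and 1217 in crushed eyes against 964, 1057 and 979.5 in control eyes. The groups did not overlap, but the log2 fold change was only 0.24 (unadjusted p = 0.148, adjusted p = 0.671 from limma), and its further probe sets gave 0.10 and 0.16. At the dimmest probe set of Grin3a the groups overlapped, and pair 1 was lower at -0.32.

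The Grin2 subunits, which bind glutamate and set the kinetics of the channel, lay on both sides of 0. Grin2b had 381, 321 and 471 in crushed eyes against 294, 509 and 277 in control eyes, a log2 fold change of 0.16. It was higher in pairs 1 and 3 and lower in pair 2, and without pair 2 it was nominally higher at 0.57. The next probe set of Grin2b, at 239.99, 245 and 292 in crushed eyes and 183, 221 and 169 in control eyes, was nominally higher at 0.44 (unadjusted p = 0.0499, adjusted p = 0.642 from limma), and the others gave 0.00 and -0.32. Grin2a had a log2 fold change of -0.32, with 49.6, 35.0 and 50.4 in crushed eyes and 46.1, 65.3 and 56.3 in control eyes. Without pair 2 this value was -0.03, and with intensities under 64 set to 64 it was -0.01. Grin2c was at -0.04 (95% confidence interval -0.38 to 0.30) and Grin2d at 0.16, or 0.01 without pair 2. The class had a median of 0.16, and its pair medians were 0.13, -0.01 and 0.23.

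The kainate receptor subunits, which modulate transmission before and after the synapse, showed no nominal difference. Grik1, Grik2, Grik3 and Grik5 had log2 fold changes of 0.05, -0.12, 0.06 and 0.13, and the sign differed between pairs in each. Without pair 2 they were at 0.28, 0.02, 0.35 and -0.13. Grik4 was not detected, with a mean intensity of 24.9. Grid1, a delta receptor that links synaptic partners through cerebellins rather than carrying a glutamate current, was at 701, 345 and 726 in crushed eyes against 518, 502 and 481 in control eyes. Crushed eyes 1 and 3 were above every control eye and crushed eye 2 below every one. Over all pairs the log2 fold change was 0.16, and without pair 2 it was 0.51 and nominally higher, but the other probe set of Grid1 gave -0.17 over all pairs.

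The secreted and auxiliary partners of kainate and delta receptors were mostly lower in crushed eyes. Of 8 such genes 7 were lower on average, against 54.3% of all genes, with a median log2 fold change of -0.32, yet 0 were nominally different. Cbln2, a cerebellin that bridges presynaptic neurexins and delta receptors, was at 1200.0, 1026 and 1123 in crushed eyes against 1258, 1684 and 1481 in control eyes. Its relative Cbln4 was at 354, 328 and 370.2 in crushed eyes against 415, 616 and 406 in control eyes. In both cerebellins every crushed eye was below every control eye, against 5.32% of all genes. Their log2 fold changes were -0.39 and -0.42 (unadjusted p = 0.0723 and 0.0853 from limma). The widest gap of Cbln2 was in pair 2, at -0.72, against -0.07 and -0.40 in pairs 1 and 3. For Cbln4 pair 2 was at -0.91, against -0.23 and -0.13. Neto1, an auxiliary subunit of kainate receptors, was lower in all 3 pairs, at -0.35, -0.34 and -0.28, with a log2 fold change of -0.32 (unadjusted p = 0.0564, adjusted p = 0.642 from limma). C1ql3 was the exception of the list at 0.19.

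**Figure D3:**
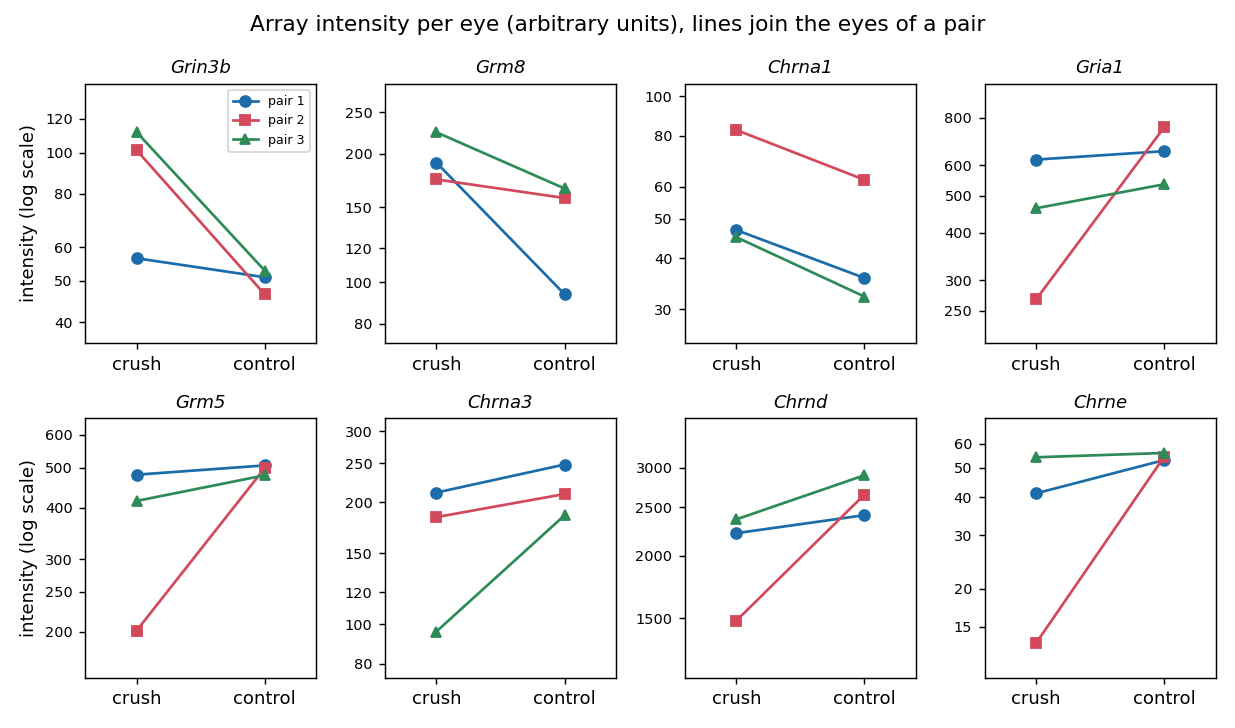
Array intensity on a log scale (y axis, arbitrary units) in crushed eyes (left) and control eyes (right) for the 8 receptor genes described with all their values, with lines joining the eyes of a pair. The lines of Grin3b, Grm8 and Chrna1 lie higher at the crushed eye in all 3 pairs, and in Gria1, Grm5, Chrnd and Chrne crushed eye 2 is the lowest point.

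Of the metabotropic receptors Grm8 was nominally higher in crushed eyes, and 4 of the 6 lay close to 0. Grm8, a presynaptic receptor that inhibits adenylyl cyclase and responds to low glutamate, was at 191, 174 and 224 in crushed eyes against 93.8, 158 and 166 in control eyes. All crushed eyes were above all control eyes, and the widest gap was in pair 1, whose control eye was the lowest array. The log2 fold change was 0.53 (SE 0.21, 95% confidence interval 0.01 to 1.06, unadjusted p = 0.0472, adjusted p = 0.642 from limma), and it was not nominally different without pair 1 at 0.29 or without pair 3 at 0.58. Grm8 is measured by 1 probe set on these arrays, and so are Grin3b, Chrna1, Chrnd and Chrne. For these genes no other probe set could be compared.

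Grm5, which acts through phospholipase C and interacts with NMDA receptors at the postsynaptic density, was at 481, 201 and 415 in crushed eyes against 506, 499 and 479 in control eyes. Each crushed eye was below its own control, narrowly in pairs 1 and 3 and by -1.31 on the log2 scale in pair 2. This gave a log2 fold change of -0.53 (SE 0.28, unadjusted p = 0.11, adjusted p = 0.65 from limma). Without pair 2 the value was -0.14, and the other probe set of Grm5 gave -0.13. The remaining receptors, Grm2, Grm3, Grm4 and Grm7, all of them inhibitors of adenylyl cyclase, lay between -0.05 and 0.09. Grm4 at 0.01 had a 95% confidence interval of -0.35 to 0.38, and Grm7 was at 2932, 3047 and 2953 in crushed eyes against 2329, 3208 and 2946 in control eyes.

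In ON bipolar cells glutamate closes a cation channel through a metabotropic receptor and its G protein cascade. Of 8 detected genes of that cascade 6 were lower and 2 higher in crushed eyes, with a median log2 fold change of -0.12. Gng13, the gamma subunit of that G protein, was at 1821, 2656 and 2304 in crushed eyes against 2661, 3448 and 3345 in control eyes, with a log2 fold change of -0.49 (unadjusted p = 0.0149, adjusted p = 0.642 from limma). It was lower in all 3 pairs, by 0.38 to 0.55, and was the only nominally different gene of the cascade. Bipolar cell markers were lower on average, with a median of -0.38. Gng13, Nyx and Trpm1 belong to both lists, so the 2 lists are not independent. Of 11 detected markers 11 were below 0 on average, against 54.3% of all genes, and 4 were nominally lower, against 2.27%. Their summed intensity was 20530 to 22960 in crushed eyes against 23370 to 27560 in control eyes. The part of bipolar cells in the value of Gng13 was not tested. Of 9 detected genes of glutamate transport and synthesis 6 were lower, 0 nominally, with a median of -0.14.

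The neuronal nicotinic subunits were lower in crushed eyes on average in 8 of 8 detected genes, although all differences were small and 0 were nominal, while 54.3% of all genes were lower on average. Their median log2 fold change was -0.13. The direction was not shared by the pairs: 5 of the 8 were higher in pair 1, 8 were lower in pair 2, and 4 were lower in pair 3. Without pair 2 the log2 fold changes of Chrna7, Chrna9 and Chrnb4 were above 0, at 0.13, 0.08 and 0.02. The count of 8 also rests on the brightest probe sets. With the mean of a gene's detected probe sets Chrna4 was at 0.02 and Chrna9 at 0.04. RGC markers were higher in 17 of 17 in pair 1, lower in 13 in pair 2 and lower in 12 in pair 3, with a summed intensity of 68370 to 85980 in crushed eyes and 76330 to 78850 in control eyes. Their part in the nicotinic values was not tested.

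Chrna3, a subunit of ganglionic receptors, had the largest difference of the neuronal subunits. It was at 212, 184 and 96.0 in crushed eyes against 248, 209.8 and 186 in control eyes. Each crushed eye was below its own control, and crushed eye 3 was the lowest array. The log2 fold change was -0.46 (SE 0.20, unadjusted p = 0.0709, adjusted p = 0.642 from limma), and without pair 3 it was -0.21. Its further probe sets gave -0.19 and -0.20, and at the dimmest of them, with 75.2, 78.8 and 77.2 in crushed eyes against 83.0, 89.3 and 94.5 in control eyes, the groups did not overlap. Chrnb4, which lies next to Chrna3 on chromosome 9 and pairs with it in receptors, was at -0.22 over all pairs and at 0.02 without pair 2, and Chrna5, the third gene of that cluster, was not detected at a mean of 25.7.

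Chrna6, a subunit known for its presence in RGCs and their axon terminals, was at 3947, 2587 and 2843 in crushed eyes against 3145, 3423 and 3599 in control eyes. It was higher in pair 1 and lower in pairs 2 and 3, with a log2 fold change of -0.14 that was -0.01 without pair 2, and its dimmer probe set, at 209.6, 61.9 and 84.6 in crushed eyes against 161, 161 and 161 in control eyes, gave -0.64 (unadjusted p = 0.124 from limma). Chrnb3, its neighbour on chromosome 8, was below the detection limit with 35.6, 13.3 and 28.5 in crushed eyes and 6.47, 4.30 and 15.1 in control eyes, and was not tested. Chrna4 and Chrnb2, which together form the most common receptor of the brain and whose beta subunit is required for retinal waves during development, had log2 fold changes of -0.15 and -0.13. Chrna7, which forms receptors with high calcium permeability, was at -0.08, Chrna2 at -0.13 and Chrna9, best known from cochlear hair cells, at -0.03. Without pair 2 Chrnb2 was at -0.02 and Chrna2 at -0.04. The further detected probe sets of Chrna4 gave -0.03 and 0.23, that of Chrnb2 0.05 and that of Chrna9 0.11.

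The subunits of the muscle receptor were also detected. Chrna1, its acetylcholine-binding subunit, was at 46.9, 82.6 and 45.1 in crushed eyes against 35.8, 62.3 and 32.2 in control eyes. Both eyes of pair 2 were higher than the other eyes, so the groups overlapped, but the crushed eye was above its control by nearly the same amount in every pair, 0.39, 0.41 and 0.49 on the log2 scale. Their mean of 0.43 (SE 0.13, 95% confidence interval 0.09 to 0.77, unadjusted p = 0.0224, adjusted p = 0.642 from limma) is the log2 fold change. Without the pairing Chrna1 was not nominally different, nor was it without pair 1 at 0.45 or without pair 3 at 0.40, and with intensities under 64 set to 64 the value was 0.12. Its mean of 50.8 lay near the detection limit. Chrne, the subunit of the adult muscle receptor, was at 41.2, 13.2 and 54.2 in crushed eyes against 53.0, 54.4 and 55.9 in control eyes. Crushed eye 2 was under the floor of 16 and was set to it, and the log2 fold change of -0.73 (SE 0.35, unadjusted p = 0.0914, adjusted p = 0.648 from limma) was -0.21 without pair 2 and -1.07, nominally lower, without pair 3. With the floor of 64 the value was 0.00. The mean of Chrne over all arrays, 45.3, passed the detection limit through the control eyes, whose mean was 54.5. The mean of the crushed eyes was 36.2, under that limit. How far Chrne was lower in crushed eyes therefore cannot be read from this probe set.

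The promoters of Chrna1 and Chrne are shown because these are the muscle subunits with the highest and the lowest log2 fold change. For Chrne the mean of the crushed eyes lay under the detection limit. A further reason is that muscle cells regulate both genes through E-boxes, the binding motif of myogenic factors. The 250 bases before the RefSeq start of each gene were searched for 1 form of the E-box, CAGCTG. This form reads the same on both strands and is in capitals below. Other forms, such as the CAGGTG in the sequence of Chrna1, were neither counted nor put in capitals. Chrna1 (chr2:73580339-73580588, minus strand, GRCm38.p6) had 2 matches, which began 92 and 44 bases before the start, and Chrne (chr11:70619195-70619444, minus strand) had 1, which began 138 bases before the start. Of the other muscle subunit genes searched, Chrng, with a log2 fold change of 0.11, also had 2 matches. Chrnb1, with 0.18, had 0 matches to CAGCTG, though its sequence holds a CAGGTG.
Chrna1: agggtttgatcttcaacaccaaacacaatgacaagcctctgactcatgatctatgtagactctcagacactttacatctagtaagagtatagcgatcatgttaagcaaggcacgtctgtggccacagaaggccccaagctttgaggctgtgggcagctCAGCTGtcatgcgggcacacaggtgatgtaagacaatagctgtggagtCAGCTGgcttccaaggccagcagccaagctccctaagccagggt
Chrne: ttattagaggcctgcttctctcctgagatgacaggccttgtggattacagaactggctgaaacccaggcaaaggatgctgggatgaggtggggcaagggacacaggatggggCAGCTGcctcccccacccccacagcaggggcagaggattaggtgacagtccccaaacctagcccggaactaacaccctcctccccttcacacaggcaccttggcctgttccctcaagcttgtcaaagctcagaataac
At least 1 match was present in 13% of 32851 RefSeq promoters and at least 2 in 1.26%. The matches describe the sequence only, and no binding was measured.

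Chrnd, another muscle subunit, gave a strong signal. It was at 2221, 1483 and 2367 in crushed eyes against 2413, 2653 and 2900.2 in control eyes. All crushed eyes were below all control eyes, and crushed eye 2 was the lowest. Chrnd had a log2 fold change of -0.42 (SE 0.19, 95% confidence interval -0.89 to 0.06, unadjusted p = 0.0749, adjusted p = 0.642 from limma), and -0.21 without pair 2. Of 8 skeletal muscle markers 5 (Acta1, Tnnt3, Myl1, Mb and Tnni2) had a mean under 40, and 3 were detected. Ckm, muscle creatine kinase, was at 371, 152 and 431 in crushed eyes against 442, 419 and 535 in control eyes, lower in all 3 pairs with a log2 fold change of -0.67 (adjusted p = 0.642 from limma), and crushed eye 2 was again the lowest. Myh4 was at 0.06 and Myh1 at -0.23. The summed intensity of the 8 was 422 to 713 in crushed eyes and 647 to 792 in control eyes, and the part of muscle RNA in the value of Chrnd was not tested. Rapsn and Musk, which cluster the receptor at the muscle synapse, were also under 40. The neighbours of Chrnd on chromosome 1 are Prss56, which was not detected with 2.88, 1 and 20.2 in crushed eyes and 8.99, 13.2 and 7.52 in control eyes, and Chrng, the fetal muscle subunit, at 103, 157 and 120.4 in crushed eyes against 112, 114 and 122.5 in control eyes. Chrnb1, the beta subunit of the muscle receptor, had a log2 fold change of 0.18. Without pair 2 Chrnb1 was at -0.01 and Chrng at -0.07.

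Genes of proteins that assemble or modulate nicotinic receptors had a median log2 fold change of 0.18 over the 6 detected, 4 of them higher. Ly6e, a membrane-anchored protein of the Ly6 family to which several nicotinic modulators belong, was at 242, 379 and 428 in crushed eyes against 172, 255 and 252 in control eyes. It was higher in all 3 pairs, by 0.49, 0.57 and 0.76, with a log2 fold change of 0.61 (unadjusted p = 0.00693, adjusted p = 0.642 from limma). Ric3, a chaperone of nicotinic receptors, had 0.29 and Lynx1, which dampens their activity, -0.04. Of 5 genes of acetylcholine synthesis, uptake and breakdown 2 were higher and 3 lower, with 0 nominally different. Chat, the enzyme that makes acetylcholine in starburst amacrine cells, was at 145, 17.7 and 214 in crushed eyes against 150.3, 142 and 174 in control eyes, low in crushed eye 2 alone.

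**Figure D4:**
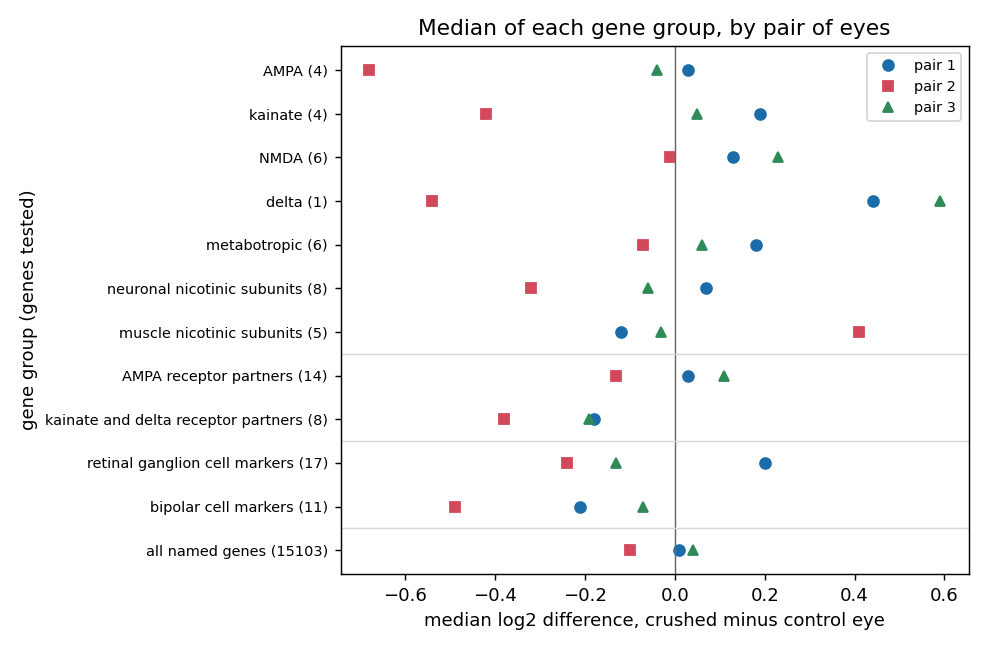
Median log2 difference of crushed minus control eye (x axis) for each receptor class, a pair of partner lists, RGC and bipolar cell markers and all detected genes (y axis, number of genes in parentheses), with a symbol per pair. Pair 2 (squares) has the lowest median in every receptor class except the muscle nicotinic subunits, with -0.68 for the AMPA receptors against -0.10 for all genes.

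By class, the pair 2 median at the brightest probe sets was lowest in the AMPA receptors, where 4 of 4 genes were lower with a median of -0.68, against 0.03 in pair 1 and -0.04 in pair 3. That value rests on the brightest probe sets of Gria1 and Gria2, whose other probe sets had pair 2 at -0.21, 0.11 and 0.15, and with the mean of each gene's probe sets the AMPA median over all pairs was -0.07 in place of -0.24. Kainate receptors had pair medians of 0.19, -0.42 and 0.05, metabotropic receptors 0.18, -0.07 and 0.06, neuronal nicotinic subunits 0.07, -0.32 and -0.06, and muscle nicotinic subunits -0.12, 0.41 and -0.03. Over all pairs the class medians were -0.24 for AMPA, 0.05 for kainate, 0.16 for NMDA, 0.05 for metabotropic and -0.13 for nicotinic receptors. Differences between classes were not tested. Photoreceptor markers differed between the pairs as well, with 16 of 16 lower in pair 1 and 16 of 16 higher in pair 3, and amacrine cell markers were lower on average in 13 of 15 with a median of -0.16. Muller cell markers were lower on average in 10 of 12, while 54.3% of all genes were lower on average. Their summed intensity was 55760 to 57380 in crushed eyes and 57780 to 66090 in control eyes. Of the single Muller cell markers only Vim and Crym had all crushed eyes below all control eyes, against 5.32% of all genes, and only Aqp4 was nominally lower. Astrocyte markers were higher on average in 4 of 6, against 45.7% of all genes. Nominally higher were 2, against 2.76%, Gfap at 0.85 and Pdgfra at 0.40 (adjusted p = 0.642 for both from limma). The medians of horizontal cell, microglia, and endothelial and mural cell markers were 0.01, 0.07 and -0.04. Of 6 detected pigment epithelium markers 3 were higher and 3 lower on average. Ttr at 2.32 and Lrat at 0.59 on the log2 scale were nominally higher (adjusted p = 0.642 for both from limma). Rdh5 was at 1.15 and not nominally different. In these 3 all crushed eyes lay above all control eyes, against 5.69% of all genes. Tyr was nominally lower at -0.49, while Tyrp1 at -0.40 and Best1 at -0.01 were not. The summed intensity of the list was 2602 to 9239 in crushed eyes against 1458 to 2007 in control eyes. Most of the sum in crushed eyes was Ttr itself, at 2332, 1733 and 7355 in crushed eyes 1, 2 and 3. Their part in the receptor values was not tested.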

How the data were processed

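Labeled RNA amplified from laser-captured cells was hybridized to Affymetrix Mu430 v2.0 arrays, 1 per eye. The deposited table gives linear intensities from dChip, to which the authors had applied an invariant set normalization and the PM/MM model. Many low values equal 1. Gene symbols came from the platform annotation (34945 probe sets with a single symbol, 932 with several, 9160 with none, 64 control probe sets left out). All 6 columns of the table were used.

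A floor of 16 was placed under the intensities before log2 was taken. Probe sets averaging under 40 on the 6 arrays were left out, and the other 33169 were fitted together in limma 3.58.1 (lmFit and eBayes, R 4.3.3) with eye number as a block and Benjamini-Hochberg adjustment over the whole table. The log2 fold change is crushed minus control eye, so with the floor it understates differences of dim genes. Precision is limited by the number of arrays. The calculation was checked on simulated data. Eye numbers pair the eyes because controls were contralateral eyes and the methods use a paired test. Deviations from the group means correlated at 0.154, 0.125 and 0.297 between eyes of the same number, against -0.264 to 0.131 between eyes of different numbers. Crushed eye 1 with control eye 2, at 0.131, was above pair 2. Deviations within a group offset each other, so part of this contrast is built in and it is weak evidence for the pairing. Nothing in the sources used here says whether each pair came from a separate mouse, so p-values measure the spread between these samples.

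Genes described with all values were those with an unadjusted p under 0.05, those with the largest log2 fold changes that had the same direction in all 3 pairs (up to 8 in all) and Gria1. Values of other genes were added after they were seen. The members, the 7 lists of partner genes and the 11 lists of cell type markers were chosen with earlier results of these data known. A list is described by its counts and median, with no test. Alternatives changed the pairing, the floor, the filter on intensity, the normalization, the variance prior, the t-test of the methods, how probe sets of a gene were combined, or left out a pair. The t-test criteria of the study (unadjusted p under 0.05, fold over 1.2 and difference over 80) were met by 321 probe sets, 0 of them of receptor genes. Promoter sequences are from RefSeq (GRCm38.p6), where 4 of the 5 muscle subunit genes had an entry.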

Additional observations from a re-analysis of the deposited data

How the results depend on the processing

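The 3 receptor genes nominally higher in crushed eyes were 1 without the replicate block (Grin3b), 0 with intensities under 64 set to 64, 1 without an intensity filter (Chrna1), 1 with a filter of 100 (Grm8) and 1 by the paired t-test of the methods (Chrna1). Leaving out 1 pair gave 0 to 4, namely Grin3b without pair 1, Grin2b, Grid1, Grm8 and Chrna1 without pair 2, and 0 without pair 3. The same 3 genes were called with a floor of 1, under quantile normalization, with arrays scaled to the same median and with the mean of a gene's probe sets. No receptor gene was nominally lower by limma as described, against 1 with a robust prior that follows intensity (Chrnd) and 0 to 1 without 1 pair (Chrne without pair 3). Over all probe sets the 2546 nominal differences became 1671 by the t-test, 2082 without the replicate block and 1551 to 2696 without 1 pair, and the 0 past an adjusted p under 0.05 became 1 with that prior. The class medians, recomputed under all alternatives but the prior and the t-test, moved by less than the spread between pairs, although the AMPA median of -0.24 was -0.07 with the mean of a gene's probe sets and -0.02 without pair 2, and the nicotinic median was -0.02 without pair 2. The causes of these differences were not tested. Chrna1, Chrne, Grin2a, Grm2 and Grin3b had means of 45.3 to 70.0, near the detection limit of 40, where array signal limits what can be seen.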
